A study of Mus musculus with 42 samples.

Results

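The histone lysine demethylases described here are 10 genes, *Kdm1a*, *Kdm1b*, *Kdm2b*, *Kdm3a*, *Kdm4a*, *Kdm4b*, *Kdm4d*, *Kdm5a*, *Kdm5b* and *Kdm6b*, taken by name from a table of RNA-seq counts of 27179 mouse genes after its gene IDs were matched to symbols. All 10 were found and all 10 passed the filter on low counts in each comparison. RNA was measured in 12 libraries of spermatogonia from C57BL/6J males at 10 days post-partum (dpp), 3 each from control Thy1+, mutant Thy1+, control c-Kit+ and mutant c-Kit+ cells. Controls were *Ddx4-Cre*; *Chd8* +/F and mutants *Ddx4-Cre*; *Chd8* F/-, where F is a floxed allele of *Chd8*, a chromatin remodeler. The *Ddx4* promoter drives Cre in germ cells, so the controls also carried Cre and 1 floxed allele, and somatic cells of the mutants, outside the reach of Cre, kept 1 intact floxed allele. Magnetic beads took c-Kit+ cells (differentiating spermatogonia) first and Thy1+ cells (undifferentiated spermatogonia) from what was left. The question was how the expression of these enzymes differed between mutant and control cells of each population, and between both populations.

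Library totals ran from 32266861 to 45396233 counts, and values are given as CPM (counts-per-million of the library total after TMM scaling). *Thy1* had 11.7 to 17.1 CPM in the 6 Thy1+ libraries and 0.436 to 1.07 CPM in the 6 c-Kit+ libraries, and *Kit* had 171 to 432 CPM in Thy1+ and 626 to 782 CPM in c-Kit+ libraries. *Chd8* had 259 to 278 CPM in control and 258 to 298 CPM in mutant Thy1+ libraries, and 263 to 305 CPM in control and 297 to 316 CPM in mutant c-Kit+ cells. These counts cover the whole gene, including exons that recombination leaves in place, so they do not check the genotype. The libraries also held RNA of somatic cells. Over 51 marker genes of 8 somatic cell types (erythroid, mast, macrophage, endothelial, stromal, peritubular myoid, Leydig and Sertoli cells), the summed level was 3455 to 4624 CPM in control and 7044 to 8652 CPM in mutant c-Kit+ libraries, and 12372 to 16973 CPM in control and 14334 to 21602 CPM in mutant Thy1+ libraries. Of the 6 germ cell markers, which were present in every library, the sum was 2081 to 2548 CPM in control and 1496 to 1722 CPM in mutant c-Kit+ libraries, and 1141 to 1784 CPM in control and 883 to 1430 CPM in mutant Thy1+ libraries. In such bulk libraries, fewer cells of a type and less RNA per cell cannot be told apart.

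Lysine demethylases remove methyl groups from histone tails and so oppose the methyltransferases that add them. *Kdm1a* and *Kdm1b* encode FAD-dependent enzymes that act on mono- and dimethylated H3K4, and the other members encode Jumonji enzymes that use iron and 2-oxoglutarate. Among these, *Kdm5a* and *Kdm5b* act on di- and trimethylated H3K4, a mark of active promoters; *Kdm2b* acts on H3K36 and binds unmethylated CpG islands, to which it brings the Polycomb complex PRC1.1; *Kdm3a* acts on H3K9 and is required for the maturation of spermatids; *Kdm4a*, *Kdm4b* and *Kdm4d* act on H3K9, the first pair also on H3K36; and *Kdm6b* acts on H3K27. Male germ cells rewrite these marks as they leave the stem cell state and enter meiosis.

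The sequences just before the transcription start show how different the CpG content of the members' promoters is, the feature that the *Kdm2b* protein itself recognizes. RefSeq start sites (GRCm38.p6) were held for 7 of the 10 members (*Kdm1a*, *Kdm1b*, *Kdm2b*, *Kdm3a*, *Kdm4a*, *Kdm4d* and *Kdm5b*) and not for *Kdm4b*, *Kdm5a* and *Kdm6b*. The windows below are the 250 bases upstream of the start of *Kdm2b* (its most upstream start, chr5:122989100-122989349, minus strand), *Kdm4d* (chr9:14500483-14500732, minus strand) and *Kdm4a* (chr4:118180044-118180293, minus strand). These members had a window and passed both thresholds between genotypes in c-Kit+ cells (FDR under 0.05 and log2 fold change beyond 0.5). The windows are written 5′ to 3′ on the strand of the gene, with every CG in capitals.
Kdm2b: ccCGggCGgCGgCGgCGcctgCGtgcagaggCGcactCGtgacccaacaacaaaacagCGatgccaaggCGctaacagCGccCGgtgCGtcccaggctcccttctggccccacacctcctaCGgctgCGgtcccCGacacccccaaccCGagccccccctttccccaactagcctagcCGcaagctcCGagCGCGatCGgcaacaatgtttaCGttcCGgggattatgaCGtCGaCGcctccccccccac
Kdm4d: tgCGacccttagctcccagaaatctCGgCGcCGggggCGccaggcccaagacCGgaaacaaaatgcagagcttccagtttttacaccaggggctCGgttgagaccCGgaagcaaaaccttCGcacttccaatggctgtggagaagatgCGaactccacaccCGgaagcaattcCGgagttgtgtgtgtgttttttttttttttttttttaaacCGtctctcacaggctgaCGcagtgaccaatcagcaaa
Kdm4a: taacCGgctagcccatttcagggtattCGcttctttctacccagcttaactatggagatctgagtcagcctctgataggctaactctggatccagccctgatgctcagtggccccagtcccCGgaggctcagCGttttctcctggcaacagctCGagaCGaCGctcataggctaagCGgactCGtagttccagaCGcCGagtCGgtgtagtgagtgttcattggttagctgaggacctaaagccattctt
The *Kdm2b* window held 27 CG dinucleotides, the *Kdm4d* window 14 and the *Kdm4a* window 12. Across 32851 windows of the same length the median was 6 (quartiles 2 and 16). The other 3 windows of *Kdm2b* held 12, 36 and 38, and the last of these had more than 98.1% of all windows. Both *Kdm4a* and *Kdm4d*, but not the most upstream *Kdm2b* window, contained CCAAT on either strand, as 33.8% of all windows did. None of the windows of these 7 members contained TATAAA (12.4% of all windows), CACGTG (6.02%), TTTGGCGC (0.417%), TTTCCCGC (0.895%) or CGGAAGTG (2.49%) on either strand; no motif searched lies within another.

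Levels were compared between genes as RPKM, that is CPM per kilobase of exon, since exon length in the count table ran from 2662 bases (*Kdm4d*) to 10969 bases (*Kdm5a*). In control c-Kit+ cells *Kdm1a* had the highest level, 79.8 ± 3.48 RPKM (SD, n = 3), and *Kdm5b* the next, 67.5 ± 3.01 RPKM. The lowest was *Kdm4d*, at 1.04 ± 0.441 RPKM. Between them lay *Kdm5a* at 44.98 ± 5.88, *Kdm6b* at 27.7 ± 2.11, *Kdm1b* at 26.1 ± 2.58, *Kdm3a* at 21.7 ± 2.83, *Kdm2b* at 17.8 ± 1.34, *Kdm4a* at 12.4 ± 0.828 and *Kdm4b* at 9.87 ± 0.282 RPKM. *Kdm6b*, *Kdm1b* and *Kdm3a* each overlapped in their libraries with the next gene in this order, and the other neighbours did not. Among the members, *Kdm1a*, *Kdm5b* and *Kdm5a*, which act on H3K4, thus held the first 3 places in these cells. *Kdm1b*, which also acts on H3K4, lay below them. *Kdm2a*, a demethylase gene outside the members, had 45.7 ± 4.04 RPKM there.

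In mutant c-Kit+ cells the same 5 genes led, but *Kdm4a* stood sixth, at 20.4 ± 0.314 RPKM (SD, n = 3), above *Kdm3a* at 19.3 ± 0.686 RPKM, and *Kdm2b* stood ninth, at 12.3 ± 0.421 RPKM, below *Kdm4b* at 13.9 ± 0.818 RPKM. The libraries of these neighbours did not overlap. In Thy1+ cells *Kdm1a* and *Kdm5b* again led, at 64.0 ± 3.81 and 59.4 ± 4.20 RPKM in controls, where their libraries overlapped. Each of the genes from *Kdm5a* (32.6 ± 5.71 RPKM) down to *Kdm4b* (15.0 ± 2.82 RPKM) overlapped with its neighbour in control Thy1+ libraries, so adjacent genes could not be ordered. Genes further apart could, since every library of *Kdm5a* and of *Kdm6b* lay above every library of *Kdm2b*, *Kdm4a* and *Kdm4b*. *Kdm4d* was last in every group, with 37 to 132 counts in a library, against at least 1541 counts for any other member.

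**Figure D1:**
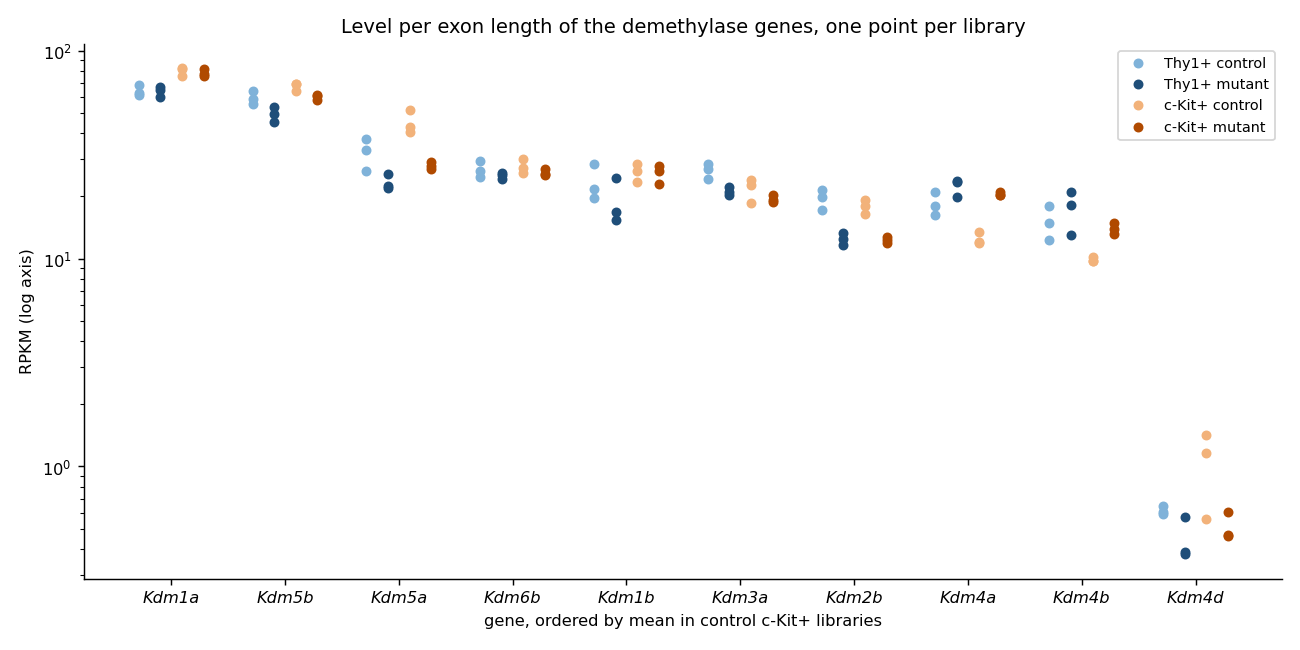
RPKM (CPM per kilobase of exon, log axis) of the 10 demethylase genes, with 1 point per library and a colour for each of the 4 groups of 3 libraries. *Kdm1a* and *Kdm5b* are at the top in every group and *Kdm4d*, near 1 RPKM or lower, at the bottom.

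Of the 4 genes described above as acting on H3K4, *Kdm5a* differed most between genotypes. *Kdm5a* (chr6:120364099-120444574, plus strand) had 444, 566 and 470 CPM in the control c-Kit+ libraries and 306, 321 and 296 CPM in the mutant ones. Every mutant library lay below every control library. The level fell to 0.599 of control, a log2 fold change of -0.74 (SE 0.09, FDR = 0.000306), and without any 1 of the 6 libraries the call held (-0.81 to -0.63). In Thy1+ cells the controls had 290, 414 and 367 CPM and the mutants 239, 281 and 246 CPM. Here too the groups did not overlap, but the log2 fold change of -0.48 (SE 0.15) did not pass after adjustment (FDR = 0.315). With the replicate number of the libraries as a block, *Kdm5a* passed on FDR but not the fold minimum, as given below. *Kdm5a* shares 271 exon bases with *Ccdc77* on the other strand, and since the counting used no strand, reads of these bases cannot be assigned to either gene.

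*Kdm5b* (chr1:134560178-134632878, plus strand) had 403, 437 and 435 CPM in control and 363, 385 and 380 CPM in mutant c-Kit+ cells. The groups did not overlap and the difference was smaller than that of its paralog, a log2 fold change of -0.23 (SE 0.06, FDR = 0.00976), which is within the fold minimum of 0.5 on the log2 scale used for a call. Thy1+ controls had 369, 403 and 351 CPM and mutants 312, 339 and 286 CPM (log2 fold change -0.26, SE 0.11, FDR = 0.401). *Kdm1a* (chr4:136550533-136602723, minus strand), the catalytic subunit of the LSD1-CoREST complex, had 229 to 248 CPM in control and 228 to 247 CPM in mutant c-Kit+ libraries, and 184 to 206 CPM in control and 181 to 201 CPM in mutant Thy1+ libraries. Its genotype difference had a 95% interval of -0.22 to 0.05 in c-Kit+ cells and of -0.22 to 0.22 in Thy1+ cells on the log2 scale. *Kdm1b* (chr13:47043539-47084613, plus strand), known for its part in setting maternal imprints in oocytes, varied more among libraries, with 100 to 122 CPM in control and 98.3 to 120 CPM in mutant c-Kit+ libraries. In Thy1+ libraries it had 92.7, 122 and 83.4 CPM in controls and 65.9, 104 and 72.0 CPM in mutants (log2 fold change -0.29, SE 0.21, FDR = 0.563), so both groups overlapped. Between both populations of the controls, *Kdm1a* was lower in Thy1+ than in c-Kit+ cells by a log2 fold change of -0.29 (SE 0.08, FDR = 0.0239) and *Kdm5a* by -0.44 (SE 0.14, FDR = 0.0375), with no overlap of libraries and neither past the fold minimum.

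*Kdm2b* (chr5:122870668-122989092, minus strand), whose CpG-rich start is shown above, had lower values in the mutant libraries of both populations, and its control level did not differ detectably between the populations (log2 difference 0.15, 95% interval -0.09 to 0.40). In c-Kit+ cells the controls had 89.3, 104 and 97.3 CPM and the mutants 64.4, 66.7 and 69.0 CPM. In Thy1+ cells the controls had 108, 117 and 92.9 CPM and the mutants 62.9, 72.4 and 67.6 CPM. No mutant library reached the lowest control library of its population, and the 6 mutant libraries lay within 62.9 and 72.4 CPM. The log2 fold change in c-Kit+ cells was -0.60 (SE 0.08, FDR = 0.00039), a fall to 0.662 of control, and it held its call without any 1 of the 6 libraries (-0.65 to -0.55). In Thy1+ cells the log2 fold change was -0.64 (SE 0.12) with an unadjusted p of 0.000744, which after adjustment over all 17416 genes gave FDR = 0.163; the lowest FDR of any gene in that comparison was 0.141. With the replicate number as a block, used because same-numbered libraries varied together, *Kdm2b* was also called in Thy1+ cells (log2 fold change -0.64, SE 0.07, FDR = 7.28e-06), as were 8.12% of all genes in either direction. The difference between both genotype effects was 0.11 on the log2 scale, with a 95% interval of -0.19 to 0.40. The summed level of markers of undifferentiated spermatogonia was also lower in mutants of both populations, but single markers went both ways in c-Kit+ cells. In Thy1+ cells the summed level of 10 markers of undifferentiated spermatogonia was 726 to 999 CPM in control and 464 to 593 CPM in mutant libraries, with no overlap. Their median log2 fold change was -0.84, with 9 of 10 at an unadjusted p under 0.05, 0 called by the quasi-likelihood test, 6 called lower by the exact test and by DESeq2 and 9 with the replicate block. In c-Kit+ cells the same 10 summed to 411 to 453 CPM in control and 343 to 354 CPM in mutant libraries. There 1 of 9 tested was called higher and 2 lower. Of 8 markers of differentiating spermatogonia 3 were called lower and 0 higher in c-Kit+ cells. Their summed level was 2349 to 2621 CPM in control and 1955 to 2221 CPM in mutant libraries. The part of either kind of spermatogonia in the values of *Kdm2b* and of the other members was not tested.

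Partners of *Kdm2b* in PRC1.1 (*Pcgf1*, *Bcor*, *Bcorl1*, *Rybp*, *Yaf2*, *Ring1*, *Rnf2*, *Skp1* and *Usp7*) did not share its call. None of these 9 genes passed both thresholds in c-Kit+ cells by the quasi-likelihood test, the exact test or DESeq2, against 22.2% of all genes in the first. Their median log2 fold change was -0.18, against 0.01 over all genes. By the quasi-likelihood test 4 of 9 had an unadjusted p under 0.05, against 47.8% of all genes. Of these 9, 3 had FDR under 0.05 without the fold minimum, against 39.2%.

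**Figure D2:**
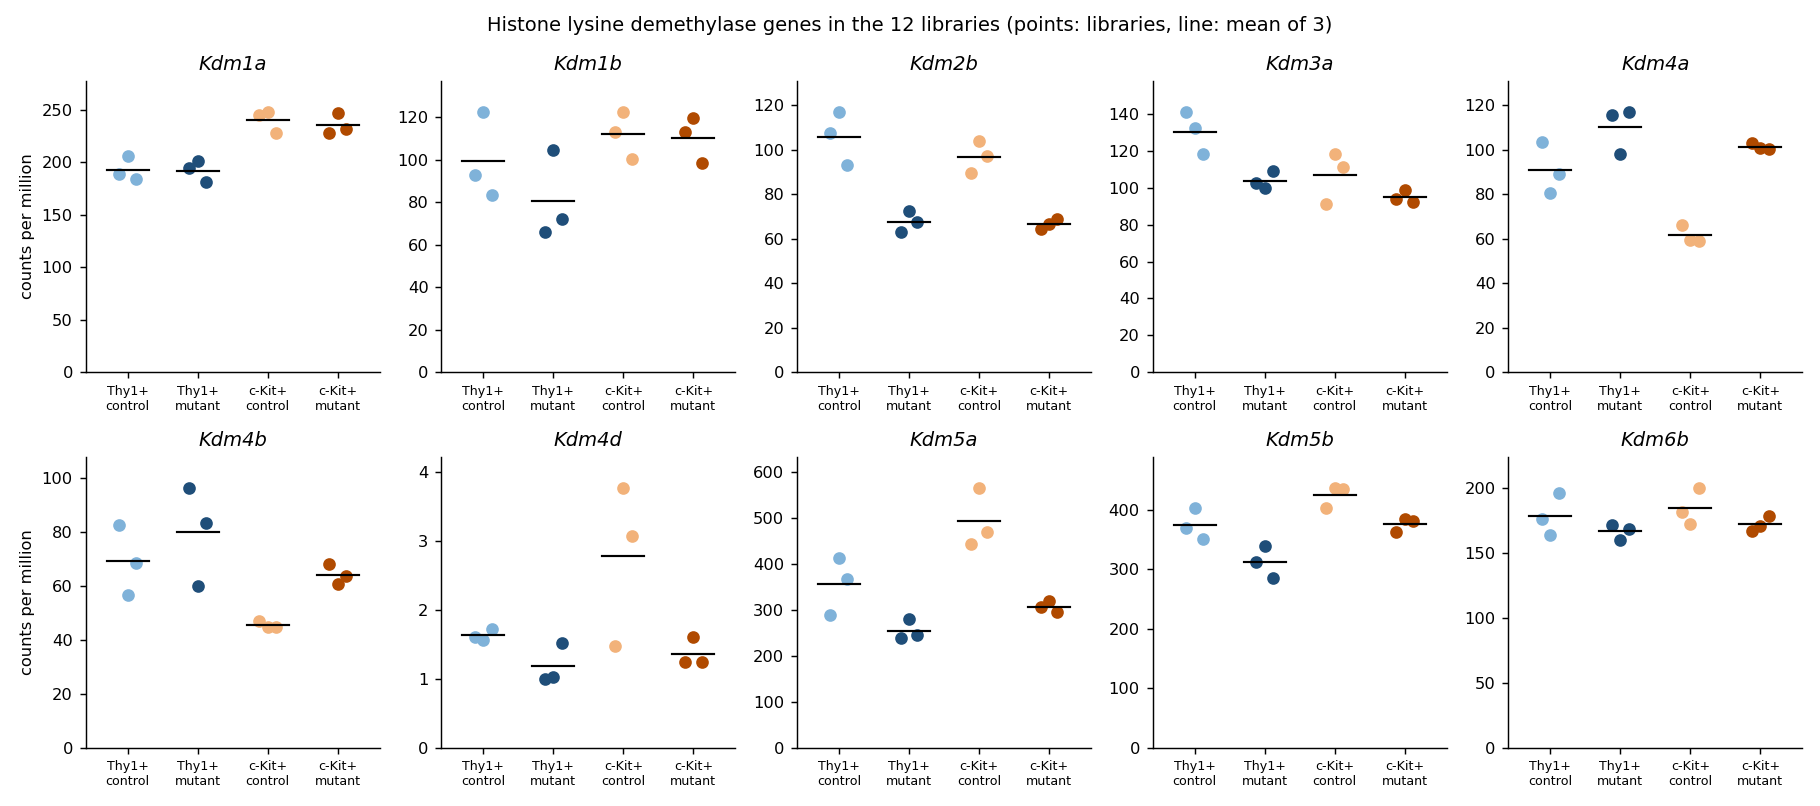
CPM of each demethylase gene in the 12 libraries, with 1 point per library, a black line at the mean of 3 and an axis from 0 in each panel. *Kdm2b* is lower in the mutants of both populations, *Kdm5a* falls from 444 to 566 CPM in control to 296 to 321 CPM in mutant c-Kit+ libraries, and *Kdm4a* is lowest in the control c-Kit+ libraries.

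The H3K9 demethylases went in different directions. *Kdm4a* (chr4:118137004-118180043, minus strand), which has Tudor domains that bind methylated histone tails, had 66.2, 59.4 and 58.8 CPM in control and 103, 101 and 100 CPM in mutant c-Kit+ cells. All mutant libraries lay above the controls. The log2 fold change was 0.66 (SE 0.07, FDR = 0.000212), a rise to 1.58 of control, with a range of 0.63 to 0.72 when each library was left out. In Thy1+ cells, where the controls already had 103, 80.6 and 89.0 CPM, the mutants had 116, 97.9 and 117 CPM, and the groups overlapped (log2 fold change 0.28, SE 0.12, FDR = 0.404). *Kdm4b* (chr17:56326050-56402873, plus strand) had 47.0, 44.7 and 44.8 CPM in control and 68.1, 60.6 and 63.8 CPM in mutant c-Kit+ libraries. These did not overlap, and the log2 fold change of 0.44 (SE 0.07, FDR = 0.00134) was under the fold minimum. In Thy1+ cells *Kdm4b* ranged from 56.8 to 82.7 CPM in controls and from 60.1 to 96.4 CPM in mutants.

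Both genes were also higher in Thy1+ than in c-Kit+ cells of controls. The log2 fold change was 0.59 (SE 0.12, FDR = 0.00599) for *Kdm4a* and 0.63 (SE 0.14, FDR = 0.00988) for *Kdm4b*, with no overlap of libraries. Without the first control Thy1+ library these values were 0.47 and 0.46, below the fold minimum. In mutants they were 0.16 (SE 0.09, FDR = 0.207) and 0.36 (SE 0.16, FDR = 0.117). The control c-Kit+ libraries enter both the genotype and the population comparison, so the 2 sets of values are not independent.

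Somatic markers also differed between these groups. Of the 45 somatic markers tested in c-Kit+ cells, 32 were called higher and 0 lower in mutants, among them 8 of 9 Sertoli and 7 of 7 stromal genes. In Thy1+ cells, 0 of 48 were called by the quasi-likelihood test (7 at an unadjusted p under 0.05), 1 by the exact test and by DESeq2 (*Lum*, higher), and 12, all higher, with the replicate number as a block, among them 8 of 9 Sertoli genes. Between control populations, 20 of 46 were called higher in Thy1+ cells, including 7 of 7 stromal genes, and 9 lower, which were 5 of 6 Leydig and 4 of 4 mast cell genes. Summed stromal markers had 1816 to 2274 CPM in control and 3293 to 4379 CPM in mutant c-Kit+ libraries, and 11122 to 14495 CPM in control Thy1+ libraries, while *Ms4a2* of the mast cell list was at 0 in control Thy1+, *Fcer1a* in mutant Thy1+ and *Hbb-bs* of the erythroid list in control c-Kit+ libraries. Germ cell markers were lower in sum in these mutant libraries, as given above. The mutant c-Kit+ libraries had *Kdm4a* at 100 to 103 CPM beside a somatic sum of 7044 to 8652 CPM, and the control Thy1+ libraries had it at 80.6 to 103 CPM beside 12372 to 16973 CPM. Stromal genes made up most of the Thy1+ sums, so the sum does not rank libraries by every somatic cell type. Sertoli markers summed to 2290 to 2510 CPM in mutant c-Kit+ and 471 to 2063 CPM in control Thy1+ libraries. Leydig markers summed to 1156 to 1997 and 233 to 423 CPM. Stromal, peritubular myoid, endothelial and macrophage sums went the other way. The part of somatic cells in the values of *Kdm4a* and *Kdm4b* was not tested.

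**Figure D3:**
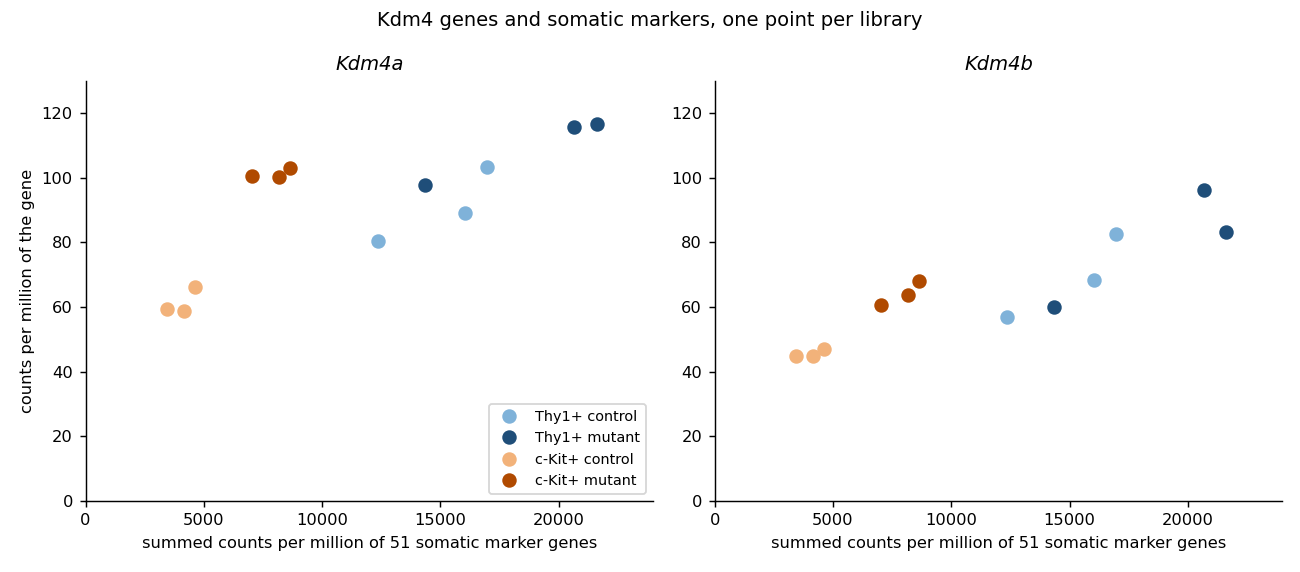
CPM of *Kdm4a* (left) and *Kdm4b* (right) against the summed CPM of 51 somatic marker genes, with 1 point per library coloured by group. The control c-Kit+ libraries are lowest on both axes, and the sum is mostly stromal in Thy1+ libraries. The mutant c-Kit+ libraries, between 7044 and 8652 CPM of markers, have *Kdm4a* at 100 to 103 CPM.

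*Kdm4d* (chr9:14462581-14500482, minus strand), a short paralog of the same family that lacks the Tudor domains, had 1.49, 3.78 and 3.08 CPM in control and 1.24, 1.61 and 1.24 CPM in mutant c-Kit+ cells. The first control library lay within the range of the mutants, so the groups overlapped. The log2 fold change was -1.08 (SE 0.34, FDR = 0.0301), the largest in size and the least certain of the 10. The call was lost without control library 2 (-0.80, FDR = 0.118), without control library 3 (-1.001, FDR = 0.0868), and without mutant library 1 (-1.02, FDR = 0.0894) or mutant library 3 (-1.02, FDR = 0.0914). In Thy1+ cells it had 1.61, 1.57 and 1.72 CPM in controls and 1.00, 1.03 and 1.52 CPM in mutants (log2 fold change -0.46, SE 0.29, FDR = 0.518).

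*Kdm3a* (chr6:71588972-71632905, minus strand) had 91.4, 118 and 112 CPM in control and 94.2, 99.0 and 92.5 CPM in mutant c-Kit+ libraries, which overlapped (log2 fold change -0.23, SE 0.09, FDR = 0.0788). In Thy1+ cells it had 141, 132 and 118 CPM in controls and 103, 99.7 and 109 CPM in mutants. There the groups did not overlap, and the log2 difference was -0.33 (SE 0.10, FDR = 0.316). The only H3K27 demethylase among the members, *Kdm6b* (chr11:69398508-69413675, minus strand), was not called in any comparison. It had 172 to 200 CPM in control and 167 to 179 CPM in mutant c-Kit+ libraries (log2 fold change -0.16, SE 0.07, FDR = 0.0919), and 164 to 196 CPM in control and 160 to 171 CPM in mutant Thy1+ libraries (log2 fold change -0.09, SE 0.10, FDR = 0.679). The 95% interval between control populations was -0.24 to 0.20 on the log2 scale.

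Over the 10 genes, 3 were called lower and 1 higher in mutant c-Kit+ cells, a call needing an FDR under 0.05 together with a log2 fold change beyond 0.5 in either direction. Of all 17134 genes tested there, 7.41% were called lower and 14.8% higher. Without the fold minimum, 6 of the 10 passed, against 39.2% of all genes, and in 5 of the 10 the groups did not overlap, against 52.2%. The last share is near that of all genes and is not a result about the members. Members had a median of -0.19 on the log2 scale and all genes one of 0.01. The 15 further demethylase genes described below had one of 0.0055. In Thy1+ cells 0 of the 10 were called by the quasi-likelihood test of edgeR, and so were 0% of all genes. At an unadjusted p under 0.05 there were 5 of 10 (*Kdm2b*, *Kdm3a*, *Kdm4a*, *Kdm5a* and *Kdm5b*), against 12.4% of all genes, and the groups did not overlap in 5, against 17.2%. The exact test of edgeR and DESeq2 each called 1 lower, *Kdm2b*, against 1.57% and 1.90% of all genes. The median was -0.27 for the members, -0.0085 for the 15 further demethylase genes and 0.02 for all genes. The members were chosen with earlier results of these data known, so these shares and medians are not independent evidence about the class. With the replicate number as a block, 7 of the 10 passed FDR without the fold minimum in Thy1+ cells, against 29.2% of all genes, *Kdm5a* among them at -0.47 (SE 0.06, FDR = 3.52e-05).

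**Figure D4:**
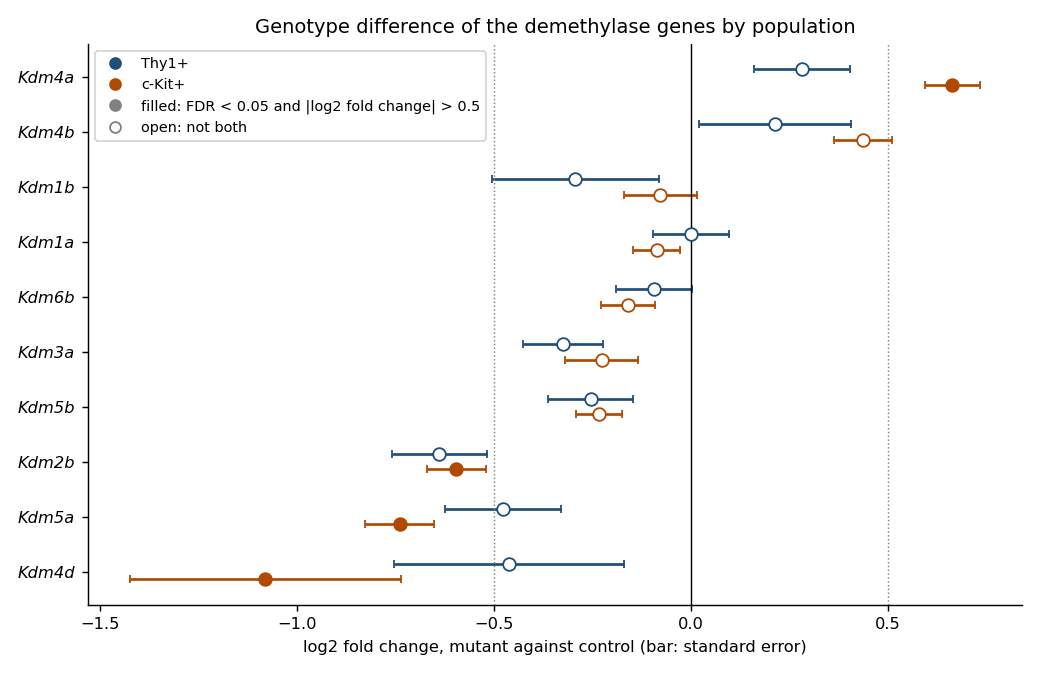
Log2 fold change of mutant against control for the 10 demethylase genes in Thy1+ (blue) and c-Kit+ (orange) cells, with bars for the standard error, filled points for genes past both thresholds and dotted lines at the fold minimum of 0.5. In c-Kit+ cells *Kdm4d*, *Kdm5a* and *Kdm2b* are filled on the left and *Kdm4a* on the right, and no point of Thy1+ cells is filled.

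Between control populations 2 of the 10 were called higher in Thy1+ cells (*Kdm4a* and *Kdm4b*), against 20.7% of all genes, and 0 lower, against 7.08%. Without the fold minimum 4 passed, against 37.6%, and in 6 the libraries did not overlap, against 54.3%. *Kdm3a* was among these 6, at 0.31 (SE 0.12, FDR = 0.066). Between mutant populations 0 of the 10 were called by the quasi-likelihood test, the exact test or DESeq2, against 20.3% of all genes in the first, and 5 had an unadjusted p under 0.05, against 42.0%. *Kdm1a* alone passed without the fold minimum (-0.25, SE 0.08, FDR = 0.0471), against 27.3%, and 4 of the 10 did not overlap, against 50.1%. Leaving out the second mutant Thy1+ library gave 2 calls there, *Kdm1b* at -0.62 (FDR = 0.00199) and *Kdm4b* at 0.54 (FDR = 0.00172).

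Whether the genotype effects differed between populations was tested as an interaction over all 12 libraries (c-Kit+ effect minus Thy1+ effect). None of the 10 passed the quasi-likelihood test, against 0% of all 18002 genes, whose lowest FDR was 0.236. DESeq2 called 0 of the 10, against 0.328% of all genes. With the replicate number as a block, no member passed either, against 2.48% of all genes. By the quasi-likelihood test 1 of 10 had an unadjusted p under 0.05, against 10.0% of all genes. This was *Kdm4a*, with a difference of 0.45 on the log2 scale (SE 0.14, FDR = 0.397). The difference was 0.29 for *Kdm4b* (95% interval -0.20 to 0.78), -0.20 for *Kdm5a* (-0.58 to 0.19) and -0.55 for *Kdm4d* (-1.56 to 0.45). No member was thus shown to differ more between genotypes in 1 population than in the other.

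The other genes of the pathway put the members in context. Of 15 further demethylase genes tested in c-Kit+ cells, 3 were called higher and 1 lower in mutants. These counts are near the shares over all genes, 14.8% higher and 7.41% lower, and are not a result about this list. *Phf2*, an H3K9 demethylase, rose by a log2 fold change of 1.04 (SE 0.11, FDR = 0.000243), *Kdm7a*, which acts on H3K9 and H3K27, by 0.56 (SE 0.06, FDR = 0.000248), and *Kdm5c*, the X-linked paralog of *Kdm5a*, by 0.54 (SE 0.08, FDR = 0.000863). *Kdm6a*, the X-linked paralog of *Kdm6b*, was lower by -0.83 (SE 0.14, FDR = 0.00155). Paralogs of 1 family thus had unlike values in the same cells. In the Kdm5 family, *Kdm5a* had -0.74, *Kdm5b* -0.23, *Kdm5c* 0.54 and *Kdm5d* 0.18 (FDR = 0.149). In the Kdm4 family, *Kdm4a* had 0.66, *Kdm4b* 0.44, *Kdm4c* 0.01 (FDR = 0.969) and *Kdm4d* -1.08. In the Kdm6 family, *Kdm6a* had -0.83, *Kdm6b* -0.16 and *Uty* 0.23 (FDR = 0.0678). These differences between paralogs were not tested. *Phf2* had 14.8 to 18.6 CPM in control and 33.1 to 40.2 CPM in mutant c-Kit+ libraries, and 40.8 to 64.8 CPM in control Thy1+ libraries. *Kdm7a* overlapped between control populations, at 147 to 162 CPM in c-Kit+ and 117 to 216 CPM in Thy1+ libraries. The part of somatic cells in the values of these genes, and of the partners and methyltransferases below, was not tested. Reads shared by near-identical stretches of X- and Y-linked paralogs could be split between them.

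Among 10 partners of *Kdm1a* in the CoREST complex, *Rcor1* (0.88, SE 0.16, FDR = 0.00225) and *Rcor3* (0.58, SE 0.11, FDR = 0.0031) were called higher in mutant c-Kit+ cells and 0 lower, beside the log2 fold change of -0.09 of *Kdm1a* itself. Over all genes, 14.8% were called higher and 7.41% lower. *Hdac1* and *Hdac2*, the deacetylases of the complex, had -0.27 (FDR = 0.00586) and -0.06 (FDR = 0.549).

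Among 22 genes for enzymes that write the same marks, 6 were called lower and 1 higher in mutant c-Kit+ cells. Over all genes, 7.41% were called lower and 14.8% higher. Of 8 H3K4 methyltransferase genes, 2 were called lower and 1 higher in mutant c-Kit+ cells. *Prdm9*, which marks sites of meiotic recombination, had -2.66 (SE 0.24, FDR = 0.000144) and *Kmt2a* -0.77 (SE 0.09, FDR = 0.00031), and *Setd1b* had 0.75 (SE 0.10, FDR = 0.000429). Of 7 H3K9 methyltransferase genes, 3 were called lower and 0 higher, *Suv39h1* at -0.75 (SE 0.09, FDR = 0.000329), *Setdb1* at -0.71 (SE 0.09, FDR = 0.000341) and *Setdb2* at -0.68 (SE 0.10, FDR = 0.000786). Of both H3K27 methyltransferase genes, *Ezh2* was called lower at -0.62 (SE 0.10, FDR = 0.000968) and *Ezh1* had -0.30 (FDR = 0.00873). None of the 5 H3K36 methyltransferase genes was called by the quasi-likelihood test, the exact test or DESeq2 (2 at an unadjusted p under 0.05, against 47.8% of all genes). In Thy1+ cells no gene of these lists was called by the quasi-likelihood test. An unadjusted p under 0.05 was found there for 10 of the 56 related genes, against 12.4% of all genes. The exact test and DESeq2 each called *Prdm9*, *Kmt2a* and *Kmt2c* lower there (at -1.93, -0.70 and -0.53 in the exact test), and the replicate block also *Kmt2d* (-0.51, FDR = 0.000756). The study itself picked H3K4 methyltransferase genes from these libraries, so their counts are not independent evidence of a direction. Only RNA levels are given here; the ChIP-seq samples of the series were not analysed.

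**Figure D5:**
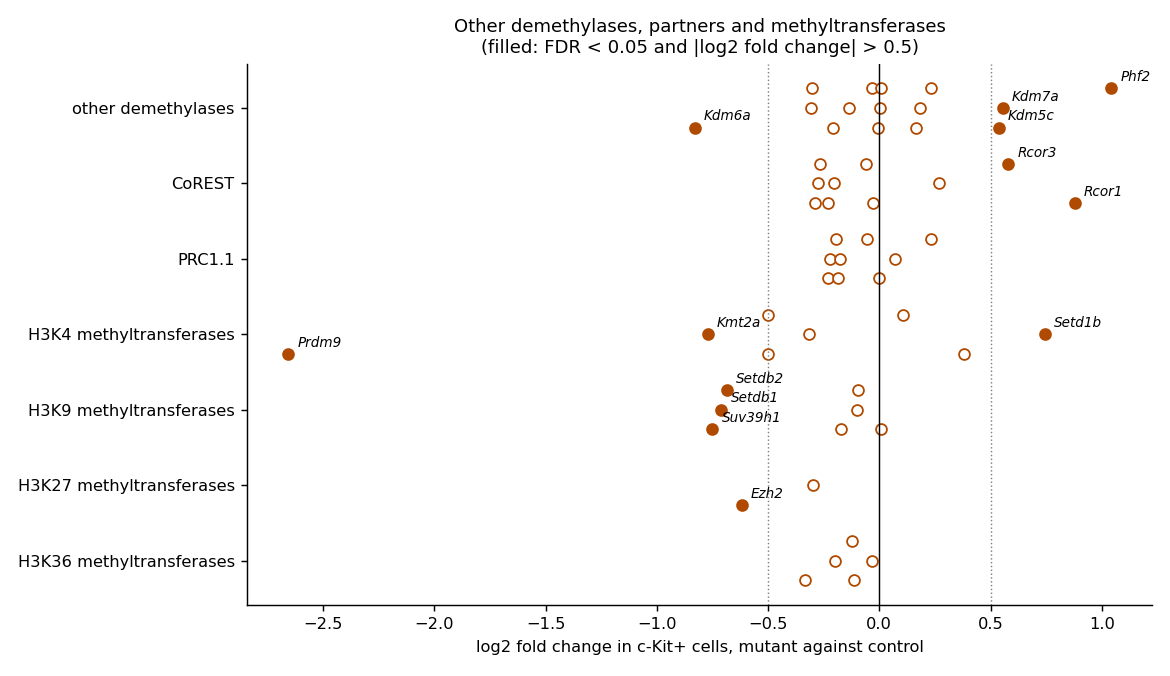
Log2 fold change of mutant against control in c-Kit+ cells for other demethylase genes, partners of *Kdm1a* (CoREST) and *Kdm2b* (PRC1.1), and methyltransferases grouped by residue, with 1 point per gene, filled and named where past both thresholds. The methyltransferase genes called lower range from *Prdm9* at -2.66 to *Ezh2* at -0.62, no PRC1.1 gene is filled, and the rightmost point is *Phf2* at 1.04.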

How the data were processed

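Paired-end RNA-seq reads (NEBNext directional kit) were trimmed by the authors with Trimmomatic 0.39, mapped to mm10 with HISAT2 2.1.0 and counted on RefSeq exons with featureCounts, version 2.0.3 per the file header. The authors deposited these counts per gene as they were, not normalized. The header's command gives no strand option and counts both reads of a fragment, so a count is about reads, not fragments. The 30 ChIP-seq samples of the series were not analysed here.

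Counts were tested with edgeR 4.0.16 in R 4.3.3 (quasi-likelihood F test, TMM, filterByExpr), with FDR after Benjamini and Hochberg over all genes tested. Each comparison used its own 6 libraries, and the interaction all 12. CPM and RPKM used 1 set of TMM factors over 12 libraries and the exon length of the count table. *Kdm4d* had the fewest counts of the members. Within a group, no 2 libraries matched within sampling noise (chi-square per degree of freedom 10.8 to 76.7). Labels do not say whether libraries came from separate animals, so p-values measure the spread between these libraries.

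All 10 members were named in every comparison, and from each list of related genes at most 4 called genes with the lowest unadjusted p, plus, chosen after their values were seen, *Kdm5d*, *Kdm4c*, *Uty*, *Hdac1*, *Hdac2*, *Ezh1*, *Kmt2c*, *Kmt2d* and *Lum*. The members and lists were chosen with earlier results of these data known. The steps were tested on counts simulated with a log2 fold change of 1.5, 1 dispersion for all genes and no replicate effect. The changes of the members were smaller than that, so the simulation does not tell how well such changes are found. Alternatives were the edgeR exact test, DESeq2 1.42.0, edgeR with DESeq2's size factors or with library size alone, no filter, at least 1 CPM in 3 libraries, a fit of all 12 libraries, no fold minimum, a replicate block, and each library left out. No source says that equal replicate numbers belong together. Their deviations correlated at 0.266 to 0.490 in Thy1+, 0.101 to 0.125 in c-Kit+ and 0.134 to 0.298 between controls. These were all over the limit of 0.1 set for pairing. Between mutant populations they correlated at 0.0211 to 0.204. Every main test used the group only and left the replicate number out, so variation shared by same-numbered libraries stayed in its error. A member that did not pass in Thy1+ cells is therefore not shown to be unchanged. The block was run in each comparison as an alternative. In Thy1+ cells the main test called 0 genes and the block 1414.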

Additional observations from a re-analysis of the deposited data

How the results depend on the processing

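In c-Kit+ cells the exact test, DESeq2, both other scalings, both other filters, the fit of all 12 libraries and the replicate block each gave the calls of *Kdm2b*, *Kdm4a*, *Kdm4d* and *Kdm5a*. In Thy1+ cells the count of called members rose from 0 to 1 (*Kdm2b*) with the exact test, DESeq2, the fit of all 12 libraries and the replicate block. Between control populations *Kdm5a* was also called with library size only (-0.53, FDR = 0.0211), and the count was 4 without a fold minimum and 0 to 4 as each library was left out (0 without the first control Thy1+ library, 4 without the first control c-Kit+ library), and between mutant populations 1 without a fold minimum and 0 to 2 (2 without the second mutant Thy1+ library). The block changed no other call. The cause of these changes was not tested. Of 740 single-member alternatives, 695 kept direction and side of the threshold, 10 passed it, 6 lost it and 29 changed sign, all near 0. For *Kdm1a* in Thy1+ cells the log2 fold change was -0.0337 with library size only, -0.00413 without a filter, -0.00484 with the 1 CPM filter, -0.00588 in the fit of all 12 libraries and -0.0549 to 0.0592 as each library was left out. For *Kdm6b* it was 0.000537 with DESeq2, 0.000648 with its size factors and 0.00596 without a filter between mutant populations, and 0.00288 with the 1 CPM filter in the interaction. As each library was left out, *Kdm6b* ranged from -0.139 to 0.0149 between control populations, from -0.0361 to 0.0359 between mutant populations and from -0.113 to 0.0601 in the interaction, where *Kdm1a* ranged from -0.16 to 0.00978, *Kdm2b* from -0.0597 to 0.193 and *Kdm5b* from -0.0575 to 0.149. *Kdm2b* between mutant populations was -0.0211 with library size only. *Kdm4d* had the fewest counts, 37 to 132 a library; the effect of depth on the members was not tested.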
